A study of Mus musculus with 12 samples.

Results

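Pericentral Wnt and glutamine zone genes were followed in the liver transcriptome of sedentary and exercised mice. They were 10 genes chosen by gene symbol for their known place around the central vein: Glul, Oat, Slc1a2 and Rhbg of glutamine, glutamate, ornithine and ammonia handling, Axin2, Lgr5, Rnf43, Znrf3 and Nkd1 of the Wnt pathway, and the transcription factor Tbx3. All 10 were among the 16821 genes in the deposited files, and the rule used gene symbols alone. The samples were livers from 12 C57BL/6J males, all adult, each sequenced as its own library. The sedentary controls (Con) numbered 6, and 6 others (Exe) were trained by moderate treadmill running over 6 weeks. The study's methods state that mice were killed within a day of the last exercise, so training and the last run cannot be told apart. The labels name no transgene, drug or diet in either group. Livers were perfused before they were taken, and the study's methods state that large vessels and bile ducts were avoided, so each library is bulk RNA of a piece of liver and not of a zone. Mice are named by group and number, from Con 1 to Exe 6.

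The liver lobule is divided into zones between the portal vein and the central vein. Endothelial cells of the central vein release Wnt ligands and R-spondin 3, which keep β-catenin active in the hepatocytes nearest to them. β-catenin enters the nucleus, binds TCF/LEF factors and switches on pericentral genes. The innermost hepatocytes take up the ammonia that escaped urea synthesis in the periportal zone and fix it into glutamine. Glul (glutamine synthetase) does this step, Oat (ornithine aminotransferase) and the glutamate transporter Slc1a2 help to supply its glutamate, and Rhbg is an ammonium transporter. Axin2 and Nkd1 are Wnt targets that dampen the signal. Lgr5 is a receptor for R-spondins, and Rnf43 and Znrf3 are the ubiquitin ligases that remove Wnt receptors from the cell surface unless R-spondins hold them off.

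The 250 bases before a transcription start are shown for 3 of the genes: Glul and Slc1a2, which had the highest Pearson's r of the member pairs without Tbx3 (below), and Axin2, a general Wnt target. RefSeq windows (build GRCm38.p6) were found for 6 of the 10 genes, 7 windows in all, since Rnf43 had a pair of starts. Lgr5, Tbx3, Rhbg and Znrf3 had no entry. The sequences run 5′ to 3′ on the strand of the gene, which is the plus strand for all 3. Capitals mark the TCF/LEF core CTTTGA or CTTTGT, searched on both strands. The Glul window lies at chr1:153899679-153899928 and ends at the outermost start of the gene. The Axin2 window at chr11:108920099-108920348 and the Slc1a2 window at chr2:102706188-102706437 belong to starts inside the span of the gene.
Glul: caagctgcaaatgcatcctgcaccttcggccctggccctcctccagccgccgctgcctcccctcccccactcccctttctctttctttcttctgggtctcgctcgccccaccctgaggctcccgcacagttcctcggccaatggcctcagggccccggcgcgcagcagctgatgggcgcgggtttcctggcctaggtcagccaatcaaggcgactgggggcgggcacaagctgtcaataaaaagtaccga
Axin2: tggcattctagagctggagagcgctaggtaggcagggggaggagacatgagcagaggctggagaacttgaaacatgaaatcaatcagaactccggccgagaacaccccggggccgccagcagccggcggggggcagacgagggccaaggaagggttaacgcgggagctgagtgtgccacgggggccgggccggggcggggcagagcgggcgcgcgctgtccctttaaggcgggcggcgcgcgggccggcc
Slc1a2: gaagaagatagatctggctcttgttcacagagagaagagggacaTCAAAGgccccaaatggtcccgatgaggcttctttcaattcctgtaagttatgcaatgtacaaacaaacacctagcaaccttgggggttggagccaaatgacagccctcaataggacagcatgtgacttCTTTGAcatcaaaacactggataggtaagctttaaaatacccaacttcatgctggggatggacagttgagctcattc
Of the 7 windows, 1 held the letters, that of Slc1a2, with TCAAAG from 206 to 201 bases before the start and CTTTGA from 77 to 72 bases before it. Among all 32851 windows of this length, 13.8% held CTTTGA, 16.5% held CTTTGT and 27.6% held either. Binding sites of HNF4A can hold the same letters, and a match is only a match of letters. Absence of the letters says nothing of more distant elements, where TCF factors also bind.

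Expression was given as FPKM, fragments normalised to transcript length and to the mapped total of the library, which allows levels of different genes to be compared per length. The members spanned a wide range. Oat had the highest level, 597.6 ± 94.9 FPKM (SD, n = 12 mice), and Glul followed with 470.1 ± 59.5 FPKM. Oat exceeded Glul in 10 of the 12 mice, but their ranges overlapped. Slc1a2 came next at 34.8 ± 5.06 FPKM, below Glul and above Rhbg in all 12 mice with no overlap. Rhbg (11.7 ± 2.44 FPKM), Tbx3 (8.67 ± 2.67 FPKM) and Rnf43 (7.13 ± 1.18 FPKM) formed a middle group whose neighbours overlapped. Nkd1 (2.48 ± 0.54 FPKM), Axin2 (2.38 ± 0.68 FPKM), Znrf3 (1.77 ± 0.29 FPKM) and Lgr5 (1.59 ± 0.43 FPKM) were lowest, and each overlapped the next. Nkd1 exceeded Axin2 in 7 of 12 mice, so their order is within the spread. All 10 genes were at 1 FPKM or more in at least 6 mice, the level required for testing, which 10241 of the 16821 genes reached. In bulk RNA, fewer cells of a type and less RNA per cell cannot be told apart.

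**Figure D1:**
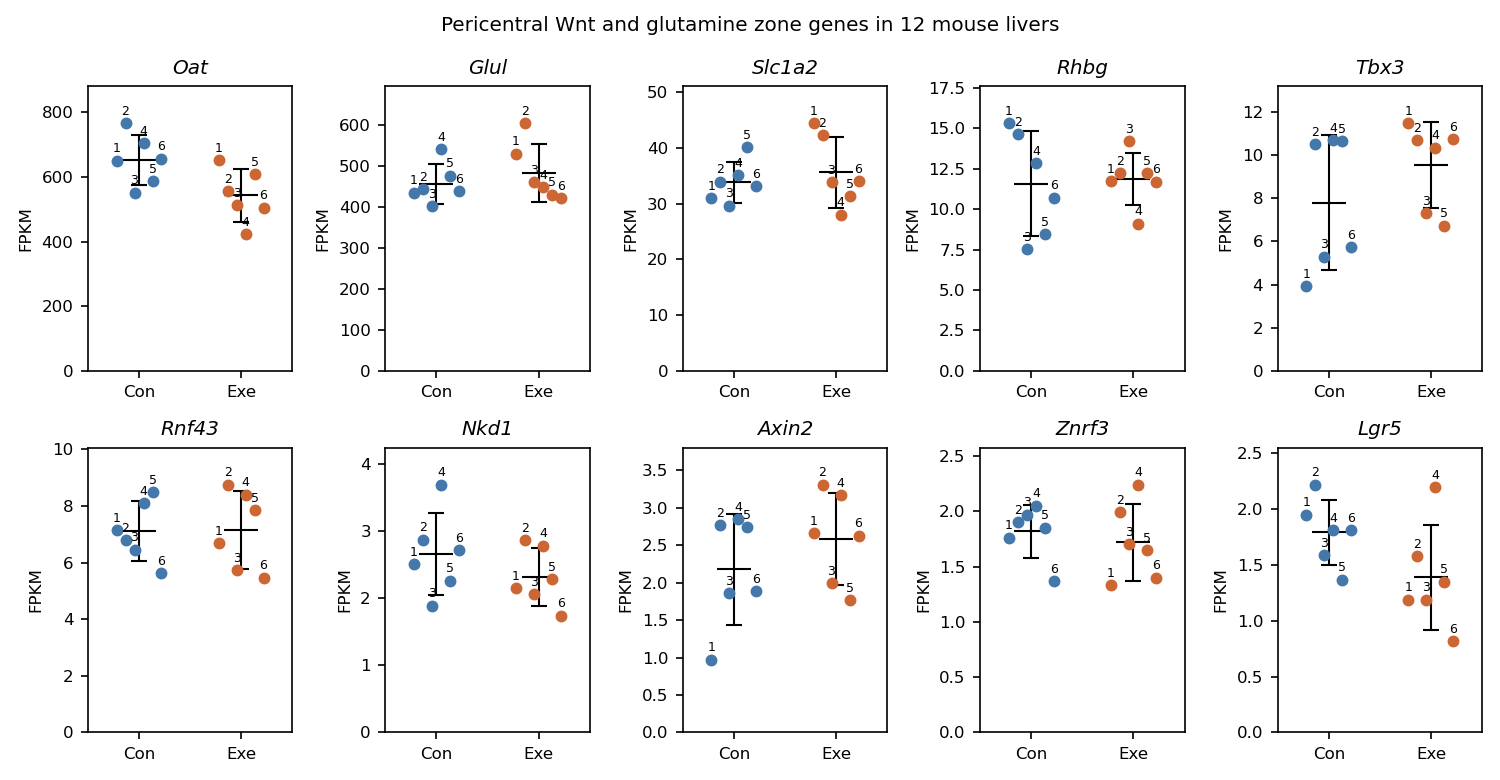
FPKM of the 10 genes in each mouse, with 1 panel per gene on its own linear axis from 0. Points are mice with their numbers, horizontal lines are group means and bars are SD (n = 6 per group). The Con and Exe ranges overlap in every panel, and all 6 Exe values of Oat lie below the Con median of 653.2 FPKM.

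Depth among the mice was checked in a way that could only see small differences. Relative depth, estimated from the smallest steps between low FPKM values, was between 0.987 and 1.02 (largest SE 0.0075). Genes above 0 numbered 14595 to 15066 per mouse. The estimate used only the 35 genes whose values fitted whole multiples of a shared step within 5% in all mice. A larger difference in depth would have removed such genes, so these values do not settle whether depth was even. No read counts were used here. The same steps, set against transcript lengths from a GENCODE annotation, gave a rough absolute depth of 10.7 M fragments per mouse (quartiles over 13 genes 9.4 and 11.63 M). At that depth Axin2 had about 44 fragments in its lowest mouse and 151 in its highest, and Lgr5 about 41 and 112, so counting error alone is near 15% where these genes are lowest. For Glul it is under 1%. Hepatocyte markers were high in all mice, with Alb at 34840 FPKM in Con and 43908 FPKM in Exe on average.

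The first question was whether these genes differed between Exe and Con mice. None of the 10 passed an adjusted p of 0.05 (limma on log2(FPKM + 1), Benjamini-Hochberg over the 10241 tested genes), where 0% of all tested genes did, and the smallest adjusted p among the members was 0.793 by limma against 0.519 among all genes. At an unadjusted p of 0.05, limma called 1 of 10 members, Oat, lower in Exe. The background is 6.21% of all tested genes in either direction, 1.94% lower and 4.27% higher, so 1 of 10 is near the background. Of the tested genes called at this level 68.7% were higher in Exe, a share that was 56.8% after quantile normalization and 52.7% after median-ratio scaling. The log2 fold changes (Exe minus Con) of the 10 genes were positive for 6 and negative for 4, with a median of 0.03, beside 0.02 over all tested genes. The Con and Exe ranges overlapped for all 10. The share of all tested genes with overlapping ranges was not computed, so this count shows nothing particular to the members.

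**Figure D2:**
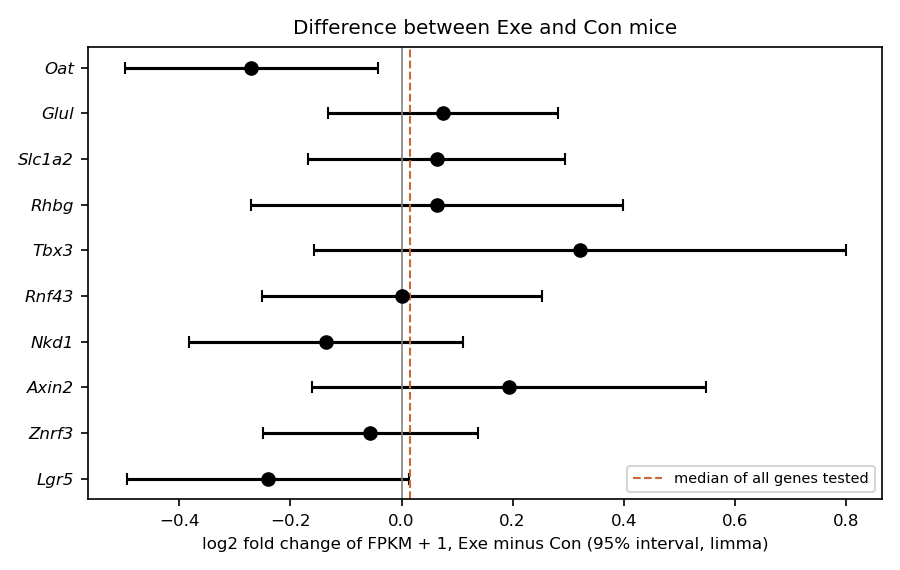
Log2 fold change of FPKM + 1 (Exe minus Con) of the 10 genes, ordered by level. Points are limma estimates, bars are 95% intervals (n = 6 mice per group), the solid line is 0 and the dashed line is the median of all tested genes. The interval of Oat, from -0.50 to -0.04, is the only one that leaves out 0.

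Among the genes of glutamine synthesis, Oat showed the lowest unadjusted p. Oat moves the amino group of ornithine onto a keto acid and so makes glutamate. Its FPKM was 550.8 at the lowest, 653.2 at the median and 765.9 at the highest in Con, and 423.6, 534.6 and 651.9 in Exe. All 6 Exe mice lay below the Con median, and 3 of them (Exe 3, 4 and 6) lay below the lowest Con mouse. The means were 652.5 ± 77.6 and 542.7 ± 81.1 FPKM (SD, n = 6 each), 16.8% lower in Exe. The log2 fold change was -0.27 (SE 0.11), with an unadjusted p of 0.0236 and an adjusted p of 0.793 by limma. By exact permutation of the group labels (two-sided), p was 0.0455, where the smallest possible value is 0.00216. In fits that dropped a single mouse, it stayed between -0.33 and -0.20, and the unadjusted limma p was at most 0.05 in 10 of 12 fits. It was 0.0582 without Con 2, the mouse with the highest value.

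Glul itself differed by less than the spread between mice. Its FPKM was 403.2, 441.6 and 542.6 in Con (lowest, median, highest) and 422.3, 454.8 and 605.5 in Exe. Exe 2, Con 4 and Exe 1 had the 3 highest values, so high mice came from both groups. The log2 fold change was 0.07 with a 95% interval from -0.13 to 0.28 (limma adjusted p = 0.947), and it was 0.0068 without Exe 2 and -0.03 after quantile normalization.

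Slc1a2, the glutamate transporter that marks the same innermost hepatocytes, had 29.7, 33.6 and 40.2 FPKM in Con and 28.0, 33.9 and 44.4 in Exe (lowest, median, highest). The Exe group held both the lowest mouse (Exe 4) and the 2 highest (Exe 1 and Exe 2). Its log2 fold change was 0.06 (95% interval -0.17 to 0.29, limma adjusted p = 0.961), and without Exe 1 it was -0.0023. Rhbg had 7.54, 11.8 and 15.3 FPKM in Con and 9.10, 11.98 and 14.2 in Exe. Its Con mice spread more widely than the Exe mice, with an SD of 3.22 against 1.63 FPKM, a difference in spread that was not tested. The log2 fold change of Rhbg was 0.06 (95% interval -0.27 to 0.40, limma adjusted p = 0.969), with -0.04 to 0.15 when single mice were left out.

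Among the Wnt pathway members, Lgr5 came closest to the unadjusted threshold. It had 1.37, 1.81 and 2.22 FPKM in Con and 0.82, 1.27 and 2.20 in Exe (lowest, median, highest). Of the Exe mice, 5 lay below the Con median and 4 (Exe 1, 3, 5 and 6) below the lowest Con mouse, while Exe 4 lay near the top of the Con range. The log2 fold change was -0.24 (SE 0.12, 95% interval -0.49 to 0.01), with an unadjusted p of 0.0620 and an adjusted p of 0.816 by limma, and an exact permutation p of 0.0823. The unadjusted limma p passed the threshold after quantile normalization (0.0449) and median-ratio scaling (0.0432), and was between 0.0053 (without Exe 4) and 0.150 (without Exe 6) with single mice left out. At these levels a pseudocount of 1 understates the change: the ratio of the group means was 0.775, or -0.37 on the log2 scale.

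The ubiquitin ligases did not pass the test. Rnf43 had 5.63, 6.98 and 8.49 FPKM in Con and 5.47, 7.27 and 8.75 in Exe. Its means of 7.11 ± 1.06 and 7.15 ± 1.39 FPKM were nearly equal, with a 95% interval of the log2 fold change from -0.25 to 0.25 and a sign that turned with the scaling and with the mouse left out. Znrf3 had 1.37, 1.88 and 2.05 FPKM in Con and 1.33, 1.68 and 2.24 in Exe, a log2 fold change of -0.06 (95% interval -0.25 to 0.14, limma adjusted p = 0.959), and -0.01 without Exe 1. The feedback inhibitor Nkd1 had 1.89, 2.61 and 3.69 FPKM in Con and 1.74, 2.22 and 2.86 in Exe. Its log2 fold change was -0.14 (95% interval -0.38 to 0.11, limma adjusted p = 0.929), and it was -0.06 without Con 4, which alone held the top of the range.

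Axin2 and Tbx3 varied most among mice, with coefficients of variation over the 12 mice of 28.7% and 30.8%. Lgr5 was close at 26.9%, and Glul had the lowest, 12.7%. Axin2, part of the complex that degrades β-catenin, had 0.97, 2.32 and 2.85 FPKM in Con and 1.77, 2.65 and 3.31 in Exe (lowest, median, highest). Its log2 fold change was 0.19 (95% interval -0.16 to 0.55, limma adjusted p = 0.929) and 0.06 without Con 1, the lowest mouse. Tbx3, a T-box repressor that β-catenin switches on in hepatocytes, had 3.93, 8.13 and 10.7 FPKM in Con and 6.73, 10.5 and 11.5 in Exe. Its log2 fold change was 0.32 (95% interval -0.16 to 0.80, limma adjusted p = 0.900) and 0.17 without Con 1. Neither difference was larger than the spread between mice.

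The spread of Tbx3 was not even: its values lay in separate sets. In 5 mice (Con 1, Con 3, Con 6, Exe 3 and Exe 5) Tbx3 was between 3.93 and 7.31 FPKM, and in the other 7 between 10.3 and 11.5 FPKM. Only gaps with at least 3 mice on each side were counted. The gap of Tbx3 was 0.335 of its whole range on the log2 scale, and the largest among the other 9 genes was 0.301. Gaps that set fewer mice apart were not counted, and by share of the range they were wider in Axin2 and Nkd1. In Axin2, Con 1 had 0.97 FPKM and the next mouse 1.77. In Nkd1, Con 4 had 3.69 FPKM and the next mouse 2.87. Both sets held mice of both groups. The same 5 mice were the 5 lowest for Axin2, with 0.97 to 1.99 FPKM against 2.63 to 3.31 FPKM in the other 7. By Pearson's r with Axin2, Tbx3 ranked 1 of 10240 tested genes. Over all 12 mice r was 0.94 (permutation p = 0.00015, adjusted p = 0.0142 over 95 pairs) and rho was 0.69 (permutation p = 0.0171, adjusted p = 0.254). Without Con 1 and Exe 5, the mice farthest from the median of Axin2, r was 0.89, and it was 0.96 within Con and 0.87 within Exe (exact permutation p = 0.00833 and 0.0833, n = 6 each). This r carries the difference between the sets. The adjusted p passed 0.05 in 13 of 16 alternatives and not without Con 1 (0.143), Con 3 (0.0503) or Exe 3 (0.0693). Within the 7 mice of the upper set, where Tbx3 hardly varied, r was -0.46 (permutation p = 0.320, adjusted p = 0.613 over 14 pairs with Tbx3), a value that does not settle whether the order was shared there, and 5 mice are too few for the lower set. The criterion for separate sets was chosen after the values had been seen, and Tbx3 only just met it.

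These 5 mice were also among the 6 with the highest summed FPKM of 8 acute-phase genes (Saa1, Saa2, Saa3, Lcn2, Orm1, Orm2, Hp and Itih4), which hepatocytes switch on in inflammation. The sums were 10221 to 34596 FPKM in the 5 mice and 4110 to 21500 FPKM in the other 7, where Con 2 had 21500 FPKM and kept high Axin2 (2.77 FPKM) and Tbx3 (10.5 FPKM). The relation with the mean log2(FPKM + 1) of the 8 genes was computed after these values had been seen. The adjusted p values cover the 10 members and not the choice of this list. For Axin2, r was -0.82 (permutation p = 0.00053, adjusted p = 0.0053 over the 10 members), and Spearman's rho was -0.80 (permutation p = 0.00225, adjusted p = 0.0225), with n = 12 mice. Without Con 1 and Exe 5, the mice farthest from the median of the acute-phase level, r was -0.75. Within the groups r was -0.73 in Con (exact permutation p = 0.0694, n = 6) and -0.95 in Exe (exact permutation p = 0.00833, n = 6). Of all tested genes, 1.44% had an r with the acute-phase level at least as far from 0. The values of Axin2 lie lower in the same 5 mice, so this r too carries the difference between the sets.

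For Tbx3, over both sets, r was -0.77 (permutation p = 0.00452, adjusted p = 0.0226, rho -0.63, permutation p = 0.0326, adjusted p = 0.109, -0.67 without Con 1 and Exe 5), and without Con 1 alone the adjusted permutation p was 0.0909. Glul followed (r -0.65, permutation p = 0.0212, adjusted p = 0.0706, rho -0.66, permutation p = 0.0217, adjusted p = 0.108, -0.64 without Con 1 and Exe 5), and 10.1% of tested genes had an r at least as far from 0. The other 7 members had r between -0.47 and 0.35, and none passed the adjusted threshold. The marker sum of Kupffer cells, the resident macrophages, was 144 to 247 FPKM in the 5 mice and 98.4 to 258 FPKM in the other 7. The sum of 7 central vein endothelium markers was 8.74 to 12.9 FPKM in the 5 mice and 8.61 to 15.6 FPKM in the other 7. Further marker lists had different medians in the 2 sets, with overlapping ranges. The sum of 34 pericentral genes, members left out, was 11534 to 14294 FPKM (median 13092) in the 5 mice. It was 12311 to 16883 FPKM (median 14614) in the other 7, of which 6 lay above all of the 5. The sum of 7 cholangiocyte (bile duct) markers, most of it Spp1, was 44.8 to 84.6 FPKM (median 74.8) in the 5 mice and 32.0 to 82.6 FPKM (median 42.3) in the other 7, where Con 2 had the 82.6 FPKM, and Krt7, Krt19 and Epcam were too low for testing. The sum of 7 sinusoidal endothelium markers was 63.4 to 86.6 FPKM (median 70.5) in the 5 mice and 74.1 to 103.7 FPKM (median 86.1) in the other 7. Kupffer medians were 199.7 and 138.8 FPKM. Exe 5, a mouse of the lower set, had the highest sum of 10 pancreatic acinar markers, 22.9 FPKM, and Exe 4 followed with 5.14 FPKM. Exe 5 also had the highest sum of 7 red cell markers, 1290 FPKM, and Exe 3 followed with 912 FPKM. All 8 acute-phase genes had a lower mean in Exe (median log2 fold change -0.69). By limma, 0 of them passed the adjusted or the unadjusted threshold, where 6.21% of all tested genes passed the unadjusted one. The part of any of these in the levels of Axin2 and Tbx3 was not tested.

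**Figure D3:**
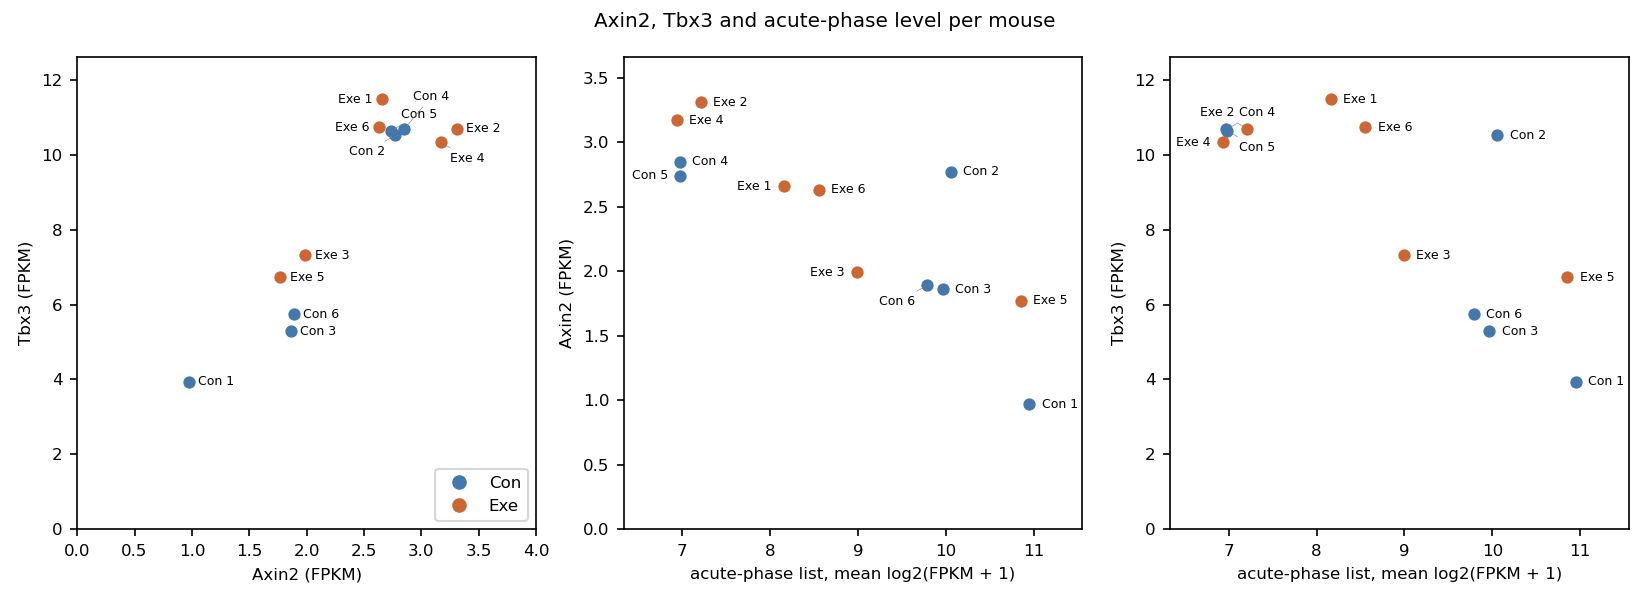
Tbx3 against Axin2 (left), Axin2 against the acute-phase level (middle) and Tbx3 against the acute-phase level (right), with a labelled point per mouse. Axin2 and Tbx3 are in FPKM on linear axes from 0, and the acute-phase level is the mean log2(FPKM + 1) of 8 genes. The 5 mice with Tbx3 of at most 7.31 FPKM are the 5 with the lowest Axin2, and Con 2 stands alone with a high acute-phase level and high Axin2 and Tbx3.

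The next question was whether the members followed each other across mice. Correlations of log2(FPKM + 1) over the 12 mice were computed for 95 pairs, the 45 pairs of members and each member with 5 partner genes: Cyp2e1 and Cyp1a2 (pericentral cytochromes P450), Cyp2f2 and Gls2 (periportal) and Rspo3. Counting all 95, 1 pair passed an adjusted permutation p of 0.05 by Pearson's r, Axin2 and Tbx3 (above). The 14 pairs with Tbx3 are left out of the counts that follow, because its values lie in separate sets. Of the other 81, 0 passed an adjusted p of 0.05 by Pearson's r or Spearman's rho (smallest adjusted permutation p 0.174 and 0.254), and 11 and 10 passed an unadjusted permutation p of 0.05. Of 36 member pairs, 26 had a positive r, with a median of 0.28. For pairs past the unadjusted threshold, many other genes could have an r with the first gene at least as far from 0. Of all tested genes, 7.1% did for Axin2 and Cyp2e1 and 7.55% for Slc1a2 and Cyp2e1, but 0.674% for Glul and Slc1a2. The same counts were not computed for pairs of other tested genes, so they show nothing particular to the members.

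Glul and Slc1a2 had the highest r of these 36 pairs, 0.76 (permutation p = 0.00438, adjusted p = 0.174), with a rho of 0.69 (permutation p = 0.0172, adjusted p = 0.254). It was 0.82 without Con 4 and Exe 2, the mice farthest from the median of Glul, 0.65 within Con and 0.81 within Exe (exact permutation p = 0.181 and 0.106, n = 6 each). By rho, Lgr5 and Nkd1 (0.74) and Glul and Axin2 (0.73) were higher. Of all tested genes, 0.674% had an r with Glul at least as far from 0. Lgr5 and Nkd1 had an r of 0.73 (permutation p = 0.00777, adjusted p = 0.174, rho 0.74, permutation p = 0.00766, adjusted p = 0.254) and 0.60 without Con 2 and Exe 6, and r was 0.50 in Con and 0.91 in Exe (exact permutation p = 0.300 and 0.0167, n = 6 each). Rnf43 and Znrf3, which act on the same receptors, had an r of 0.69 (permutation p = 0.0154, adjusted p = 0.209, rho 0.66, permutation p = 0.0249, adjusted p = 0.254) and 0.59 without Exe 2 and Exe 6. Oat and Glul did not follow each other closely (r 0.17, permutation p = 0.599, adjusted p = 0.772, rho 0.22, permutation p = 0.485, adjusted p = 0.756, 0.18 without Con 4 and Exe 2).

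With the partner genes, Glul had an r of 0.71 with Cyp1a2 (permutation p = 0.00916, adjusted p = 0.174, rho 0.51, permutation p = 0.0940, adjusted p = 0.298). It was 0.37 without Con 4 and Exe 2, so it rests on those mice. Glul and Rspo3 had an r of 0.69 (permutation p = 0.0129, adjusted p = 0.205, rho 0.61, permutation p = 0.0385, adjusted p = 0.254) and 0.47 without the same mice. Slc1a2 followed the periportal Cyp2f2 with an r of 0.74 (permutation p = 0.00618, adjusted p = 0.174, rho 0.69, permutation p = 0.0152, adjusted p = 0.254) and 0.66 without Exe 1 and Exe 2. The higher values of r were therefore not limited to pericentral partners.

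The genes most like Glul by Pearson's r over 12 mice, of 10231 tested genes outside the members, were Ociad1 (r 0.91, rho 0.64), Rnf167 (0.88, 0.84), Nop58 (0.88, 0.76), Gnptg (0.88, 0.75) and 1190007I07Rik (0.87, 0.67). Those most like Axin2 were Enoph1 (r 0.93, rho 0.85), Zfp866 (0.93, 0.85), Slc23a2 (0.92, 0.85), Srcap (0.91, 0.88) and Cebpg (0.91, 0.79). They are the extremes of a ranking, given as a description with no test.

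The genes upstream of the members were low in whole liver. Of 18 Wnt ligands and R-spondins in the files, 5 reached the level for testing. By limma, 0 of the 5 passed the adjusted or unadjusted threshold, where 6.21% of all tested genes passed the unadjusted one. The median log2 fold change was 0.12 (0.02 over all tested genes). Rspo3, the R-spondin of the central vein, was 2.27 ± 0.57 FPKM in Con and 2.56 ± 0.26 in Exe (log2 fold change 0.14, SE 0.10, limma adjusted p = 0.914). Wnt5b had the highest mean, 2.28 ± 0.55 and 3.15 ± 1.43 FPKM. Wnt9b, a Wnt of the central vein named here after its values were seen, was below the level for testing, with 0.39 ± 0.04 FPKM in Con and 0.61 ± 0.25 in Exe (exact permutation p = 0.0260, not adjusted). This p was the smallest among the 18 genes of the list, at a level near the floor.

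Of 10 tested Wnt receptors and co-receptors, 6 had a positive and 4 a negative log2 fold change, 0 passed either threshold by limma and the median was 0.04. Lrp5, a Wnt co-receptor, was the highest with 15.7 ± 2.09 FPKM in Con and 15.5 ± 1.95 in Exe. Of 26 genes of signal transduction, 9 were positive and 17 negative, 0 passed either threshold by limma and the median was -0.04. After quantile normalization Gsk3b, the kinase that marks β-catenin for destruction, passed the unadjusted limma threshold (log2 fold change -0.14), and after median-ratio scaling so did Gsk3b (-0.15) and Bcl9l (-0.20), a β-catenin co-activator. Tle5, a transcriptional co-regulator, had the highest mean of this list, 406.5 ± 24.5 FPKM in Con and 410.0 ± 31.2 in Exe. Of 4 tested secreted or feedback antagonists, 1 was positive and 3 were negative, with 0 past either threshold by limma and a median of -0.01. Notum, an enzyme that inactivates Wnt ligands, was the highest with 22.3 ± 3.38 FPKM in Con and 21.6 ± 4.10 in Exe. Beside the 6.21% of all tested genes past the unadjusted threshold, counts of 0 in lists of 10, 26 and 4 genes are near the background. They do not show that the pathway was unchanged.

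The wider pericentral zone had 4 genes past the unadjusted threshold, cytochromes P450 and a hormone receptor. Of 34 tested pericentral genes, members left out, 24 had a positive and 10 a negative log2 fold change, with a median of 0.09. By limma, 0 passed the adjusted threshold, and 4 of 34 passed the unadjusted one, all higher in Exe, where 4.27% of all tested genes were called higher. Cyp2c54 was 154.1 ± 27.6 FPKM in Con and 228.7 ± 44.4 in Exe (log2 fold change 0.57, SE 0.13, limma adjusted p = 0.580) and Cyp2c50 433.5 ± 58.4 and 580.4 ± 88.7 FPKM (0.42, SE 0.11, limma adjusted p = 0.657). Cyp2c37 was 148.6 ± 37.9 and 205.9 ± 55.9 FPKM (0.46, SE 0.19, limma adjusted p = 0.793). These 3 are cytochromes P450 of 1 gene cluster with similar sequences, so reads may have been shared among them. Avpr1a, the vasopressin receptor of hepatocytes, was 9.37 ± 1.301 and 11.8 ± 2.25 FPKM (0.29, SE 0.12, limma adjusted p = 0.793). Cyp2e1, the highest of the list, was 4022 ± 485 and 4125 ± 535 FPKM (0.03, SE 0.11), and Cyp1a2 was 612.6 ± 51.0 and 713.3 ± 246.9 FPKM (0.15, SE 0.19).

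Of 29 tested periportal genes, 14 were positive and 15 negative, and the median log2 fold change was -0.02. By limma, 0 passed the adjusted threshold and 3 of 29 the unadjusted one, where 6.21% of all tested genes did. Cps1 (below) was 1 of these 3. Sdsl, a serine dehydratase-like enzyme, had a log2 fold change of 0.24 (SE 0.08, limma adjusted p = 0.793) and Tat, which degrades tyrosine, -0.55 (SE 0.23, limma adjusted p = 0.793). Ass1 of the urea cycle had the highest mean, 2157 ± 248 FPKM in Con and 2284 ± 365 in Exe. Cyp2f2 was 1134 ± 66.7 and 1147 ± 123 FPKM, and Gls2, the liver glutaminase, was 126.6 ± 10.1 and 123.9 ± 19.8 FPKM.

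Of 29 tested genes of glutamine, ornithine and ammonia handling, members left out, 19 were positive and 10 negative, and the median log2 fold change was 0.06 and 0 past the adjusted threshold by limma. The unadjusted threshold was passed by 3 of 29, where 6.21% of all tested genes passed it, and Cps1 was also among the periportal calls. Cps1, the first step of the urea cycle, was 542.2 ± 64.3 FPKM in Con and 663.1 ± 66.2 in Exe (log2 fold change 0.29, SE 0.09, limma adjusted p = 0.777). Got2, the mitochondrial aspartate aminotransferase, was 232.1 ± 9.06 and 258.4 ± 23.8 FPKM (0.15, SE 0.06, limma adjusted p = 0.793). Slc7a2, a carrier of arginine, lysine and ornithine, was 56.9 ± 11.04 and 45.4 ± 6.94 FPKM (-0.31, SE 0.13, limma adjusted p = 0.793), the same direction as Oat. Several lists share genes, Cps1 and Gls2 among them.

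**Figure D4:**
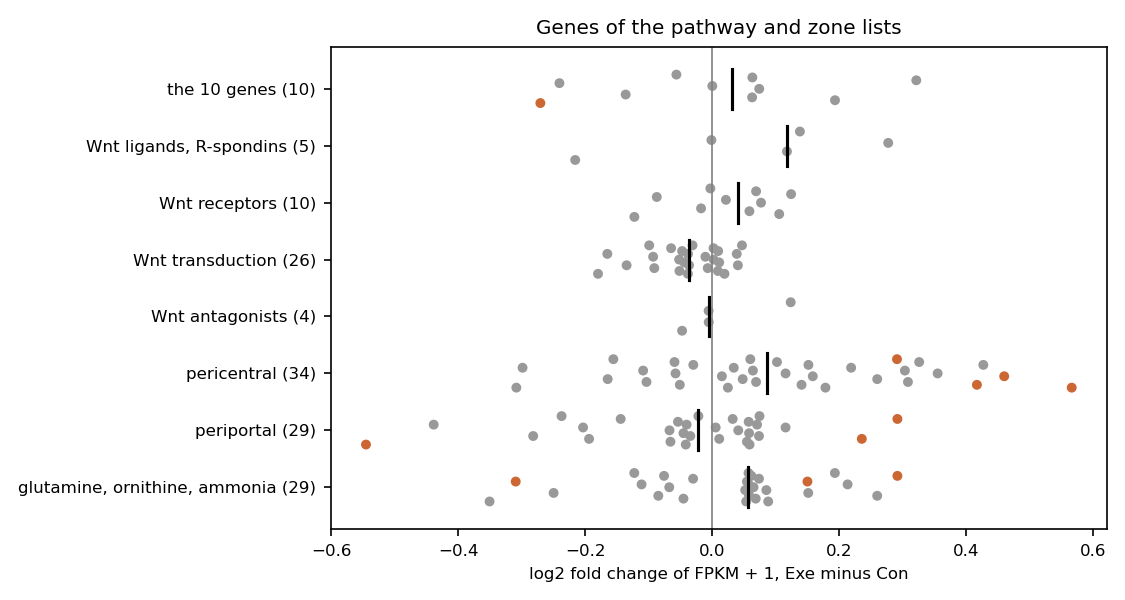
Log2 fold change of FPKM + 1 (Exe minus Con) of each tested gene of the 10 members and 7 lists, with the number of tested genes in brackets. Each point is a gene, vertical offsets only separate points, black bars are list medians, and orange points have an unadjusted limma p of at most 0.05. The medians lie between -0.04 and 0.12, and the orange points are 1 member, 4 pericentral, 3 periportal and 3 glutamine, ornithine and ammonia genes.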

How the data were processed

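The authors extracted liver RNA, sequenced it on the DNBseq platform and aligned reads with HISAT to GRCm39. Per the labels, the submitters' processing notes also list mm10 and Bowtie2. The authors deposited FPKM per gene and mouse to 2 decimals. The tool and annotation behind the FPKM are not given in the sources used here. Their methods state that outlying mice were excluded by principal component analysis. The authors tested genes with DESeq and reported genes, up and down, past their thresholds of fold change and Q-value. That test needs counts, so limma 3.58.1 (R 4.3.3, lmFit and eBayes with a trend) was used on log2(FPKM + 1) of genes with at least 1 FPKM in at least 6 of 12 mice, with Benjamini-Hochberg adjustment over 10241 genes.

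On simulated data of 10241 genes for Exe against Con, the fit called 150 of 200 genes changed by a log2 fold change of 0.5, and 192 of 200 changed by 1, with 12 and 2 false calls. Noise was drawn for each gene on its own, from a normal distribution with the gene's observed spread. Differences between mice shared by many genes were therefore not simulated, and the counts do not give the power for any single member. Single genes were compared by exact two-sided permutation over 924 splits, and correlations by 100000 permutations (Python 3.11.15, scipy 1.17.1). Each mouse is 1 replicate, and depth in reads was only estimated.

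The 10 genes and all lists were chosen with earlier results of these data known. All members were named, and of each list the genes at an unadjusted p of at most 0.05 and the gene with the highest mean. Also named were 5 partner genes and the 5 genes most like Glul and Axin2. The criterion for separate sets and the acute-phase correlations were chosen after seeing the data. Alternatives were other scalings, pseudocounts and filters, robust moderation, the replicate number as a block and each mouse left out.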

Additional observations from a re-analysis of the deposited data

How the results depend on the processing

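Of 196 alternative values of the members' log2 fold changes, 183 had the same sign as reported and 13 changed sign, all in genes with a main value near 0. Glul was -0.026 after quantile normalization. Rnf43 was -0.0026 after quantile normalization, -0.018 after median-ratio scaling and -0.000708 with a pseudocount of 0.1. With single mice left out, Rnf43 ranged from -0.056 to 0.063, Rhbg from -0.040 to 0.147 and Slc1a2 from -0.0023 to 0.127. No alternative brought a member past the adjusted threshold by limma. The cause of these changes was not tested.

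Members at an unadjusted limma p of 0.05 numbered 2 (Oat and Lgr5) after quantile normalization and 2 after median-ratio scaling, and 0 (without Con 2) to 2 (without Con 5) with single mice left out. Without Exe 4 the 1 called was Lgr5 and not Oat. Of all genes, 418 (without Exe 2) to 905 (without Exe 5) passed the unadjusted threshold, against 636 with all mice. With no filter, 1 of 16804 genes passed the adjusted threshold, D630003M21Rik, which is no member (log2 fold change -0.22, limma adjusted p = 0.0476). The signal transduction list had 1 gene at an unadjusted p of 0.05 after quantile normalization and 2 after median-ratio scaling, against 0 as reported. With Tbx3 left out for its separate sets, members past the adjusted threshold for the acute-phase level numbered 1 to 3, the highest count without Exe 4, when Glul and Slc1a2 joined Axin2. With Tbx3 counted, 2 members passed with all mice (Axin2 and Tbx3), 4 without Exe 4 and 1 without Con 1, and 1 of 95 pairs passed (Axin2 and Tbx3) in place of 0 of 81. The adjusted p of Axin2 was at most 0.0450. A mean of at least 5 FPKM left Axin2, Lgr5, Znrf3 and Nkd1 without a value.

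Mice with the same replicate number did not deviate from their group means together. Their correlations ran from -0.48 to 0.16, and only number 4 correlated best with its own number. These values cannot settle whether same-numbered mice shared anything beyond the number. With the replicate block, 0 members passed the adjusted threshold, Oat remained the only member at an unadjusted p of 0.05 (0.0383), and 567 genes passed the unadjusted threshold by limma. The deposited values hold no counts, which limits what can be said of counting error in the lowest genes, Axin2, Lgr5, Znrf3 and Nkd1.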
